A study of Mus musculus with 34 samples.

Results

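MHC class I molecules were followed through 8 genes of the gene table, out of 51368: the classical heavy chains H2-K1 and H2-D1, the non-classical heavy chains H2-Q4, H2-Q6, H2-Q7, H2-Q10 and H2-T23, and B2m, which encodes their shared light chain. They were picked by gene name, with earlier results of these data known. The 34 RNA-seq libraries came from liver and heart of 1 wild-type C57BL/6J mouse aged 12 weeks, given as male in 1 label field and as female in another. Liver RNA was prepared by polyA selection (9 libraries), by pull-down of ribosomal RNA (rRNA) with capture probes (9 libraries) or by digestion of rRNA (9 libraries), each at 3 PCR ramp rates (slow, medium, fast: how quickly the thermocycler changes temperature) and 3 fragment lengths (short, medium, long). Another 6 liver libraries and 1 heart library had no selection and no rRNA removal, with a slow ramp and medium fragments. The unselected liver libraries were 3 of batch 1 and 3 of batch 2. Batch 1 also held every polyA library and the heart library, and batch 2 held those made by pull-down or digestion. Selected libraries used 200 ng of RNA and unselected ones 20 ng, each method had its own kit (that for digestion with its adapters exchanged), and the unselected libraries were made with the pull-down kit. The libraries are repeated preparations from 1 animal, so every p-value below measures the spread between preparations only. A difference between methods therefore includes the kit, and between polyA and the other methods also the batch.

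A class I molecule is a heavy chain paired with beta-2 microglobulin, the product of B2m. H2-K1 and H2-D1 encode heavy chains that nearly all nucleated cells carry on their surface and that show peptides from inside the cell to CD8 T cells. H2-T23 encodes Qa-1, a ligand of inhibitory receptors on natural killer cells, and H2-Q6 and H2-Q7 belong to the genes of the Qa-2 antigens, which are held in the membrane by a lipid anchor. H2-Q10 is known for its expression in liver, from which its heavy chain is secreted into the blood. H2-Q4 is a further gene of the same Q region.

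The start regions of H2-Q10, which was far lower in heart than in liver, and of H2-K1, a classical gene measured in both tissues, are shown to set the 2 kinds of heavy chain side by side, from 250 bases before to 50 bases after the annotated start (RefSeq, GRCm38.p6). H2-K1 lies on chromosome 17 at 33996017 to 34000347 on the minus strand, and the window shown covers chr17:34000298-34000597 (RefSeq lists a second H2-K1 start nearby). H2-Q10 lies on chromosome 17 at 35470089 to 35474563 on the plus strand, and its window covers chr17:35469839-35470138. Capitals mark every match on either strand to GGG, 2 bases of any kind, T, 1 base of any kind and CCC, a pattern like the binding site of NF-kappaB and so called kappaB-like here, and to CCAAT.
H2-K1: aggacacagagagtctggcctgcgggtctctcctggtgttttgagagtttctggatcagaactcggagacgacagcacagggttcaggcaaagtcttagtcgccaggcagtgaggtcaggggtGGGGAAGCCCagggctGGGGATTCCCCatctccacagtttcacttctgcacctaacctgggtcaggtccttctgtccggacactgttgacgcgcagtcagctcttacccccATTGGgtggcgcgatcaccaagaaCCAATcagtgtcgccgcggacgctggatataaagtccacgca
H2-Q10: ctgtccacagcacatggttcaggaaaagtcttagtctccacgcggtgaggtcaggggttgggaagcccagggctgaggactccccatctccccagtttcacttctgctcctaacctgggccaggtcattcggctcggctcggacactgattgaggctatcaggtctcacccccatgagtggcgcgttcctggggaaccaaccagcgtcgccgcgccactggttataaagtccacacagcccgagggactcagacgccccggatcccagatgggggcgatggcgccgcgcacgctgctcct
The H2-K1 window held kappaB-like matches in 2 separate stretches, some of them overlapping, and a CCAAT match on each strand, and the H2-Q10 window held neither. The kappaB-like letters were also found in the windows of H2-D1, H2-Q4, H2-Q6 and H2-Q7 and not in those of H2-T23 and B2m, against 5.02% of all 32851 RefSeq promoter windows of the same length. CCAAT was found in the windows of all members but H2-Q10, against 37.41% of all windows. The pattern TTTC, 2 bases of any kind and TTTC, a strict form of the core of an interferon-stimulated response element, was found in B2m and H2-T23 and in 3.44% of all windows. Looser forms were not searched, so a window without this match may still hold such an element. No member window held TGACGTCA (1.79% of all windows) or TGACGCAA (0.49%). Both strands were searched for all 5 patterns, and a match or its lack says nothing about binding.

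The heavy chains resemble one another closely enough that reads can fit several of them. To make that overlap visible, windows of 60 coding bases that begin at a codon of H2-Q10 were compared with the other 6 heavy chains. The window most alike among these lies in exon 4 of each gene, at chr17:35473226-35473285 in H2-Q10, and its bases are shown. They come from the GENCODE M21 transcripts (GRCm38), and capitals mark bases that differ from H2-Q10.
H2-Q10, and identically H2-K1, H2-D1, H2-Q6 and H2-Q7: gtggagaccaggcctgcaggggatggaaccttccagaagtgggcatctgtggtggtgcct
H2-Q4: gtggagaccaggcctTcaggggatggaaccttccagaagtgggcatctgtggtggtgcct
H2-T23: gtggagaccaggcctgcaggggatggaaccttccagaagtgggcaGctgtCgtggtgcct
H2-Q4 differed at 1 base and H2-T23 at 2 bases. Over whole transcripts, the share of 31-base words that also occur in another gene was 50.3% in H2-Q6, 48.6% in H2-Q7, 48.4% in H2-T23, 43.4% in H2-Q4, 27.5% in H2-D1, 23.3% in H2-K1 and 18.6% in H2-Q10, and 0% in B2m. H2-Q6 and H2-Q7 had an identical run of 265 bases. The deposited counts are estimates in which the quantifier divides such reads by a model: each heavy chain gene had counts that were not whole (any decimal part, tolerance 0) in 31 to 34 of the 34 libraries, and B2m in 3 of them. H2-Q6 shared 24.6% of its words with H2-Q4 and 18.4% with H2-Q7. H2-Q7 shared 28.0% with H2-Q5 and 25.4% with H2-Q6, and H2-T23 shared 25.5% with H2-T-ps. The split among these genes, H2-Q6 and H2-Q7 included, is therefore uncertain. H2-Q6 and H2-Q7 were also fitted as 1 summed row, which leaves the other splits as they are. Against unselected libraries, that row had a log2 fold change of 0.54 with polyA selection (edgeR adjusted p = 5.41e-07). Digestion gave 0.28 (edgeR adjusted p = 0.0124) and pull-down gave -0.16 (edgeR adjusted p = 0.128). With long against short fragments it changed by -0.28 in polyA and by -0.10 in digestion libraries (edgeR adjusted p = 6.42e-05 and 0.0111).

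Each unselected liver library held 19.87 to 21.7 M counts (M for 1e6), against 23.45 to 41.4 M in polyA, 19.98 to 30.17 M in digestion and 22.29 M in heart. They were 23.38 to 39.19 M in 8 pull-down libraries and 1.13 M in the pull-down library with slow ramp and long fragments, and this low-depth library stood apart in several members below. The 7 cardiomyocyte markers summed to at most 0.838 normalised CPM (counts per 1e6 effective counts, the scale used throughout) in any liver library and to 27930 in heart, and the 7 hepatocyte markers to 45040 to 79290 in liver and 192.5 in heart.

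In unselected liver, H2-Q10 was the heavy chain with the highest level. Its values in the batch 1 libraries were 1000, 1019 and 962.6 CPM, and in the batch 2 libraries 944.2, 876.1 and 920.4 CPM. B2m stood at 494.6, 503.3 and 520.0 CPM in batch 1 and at 486.3, 521.8 and 515.8 CPM in batch 2. H2-Q10 made up 58.1% ± 0.352 (SD, n = 3) of the summed CPM of the 7 heavy chains in batch 1 and 58.0% ± 0.638 in batch 2, and H2-K1 another 22.5% ± 0.211 and 22.7% ± 0.387.

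Levels of different genes can be compared only per length of transcript. On that scale (CPM per kb), the order in the unselected libraries of batch 1 was B2m at 588 ± 15.0 (SD, n = 3), H2-Q10 at 499 ± 14.4, H2-K1 at 238 ± 4.58, H2-D1 at 86.0 ± 5.03, H2-T23 at 59.3 ± 4.42, H2-Q7 at 19.5 ± 1.38, H2-Q4 at 11.3 ± 1.23 and H2-Q6 at 6.73 ± 1.03. The ranges of neighbours in this order did not overlap in either batch. In polyA libraries, B2m (798 to 1134 CPM per kb) overlapped H2-Q10 (699.6 to 932), and H2-D1 (107 to 147.8) overlapped H2-T23 (81.4 to 111).

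**Figure D1:**
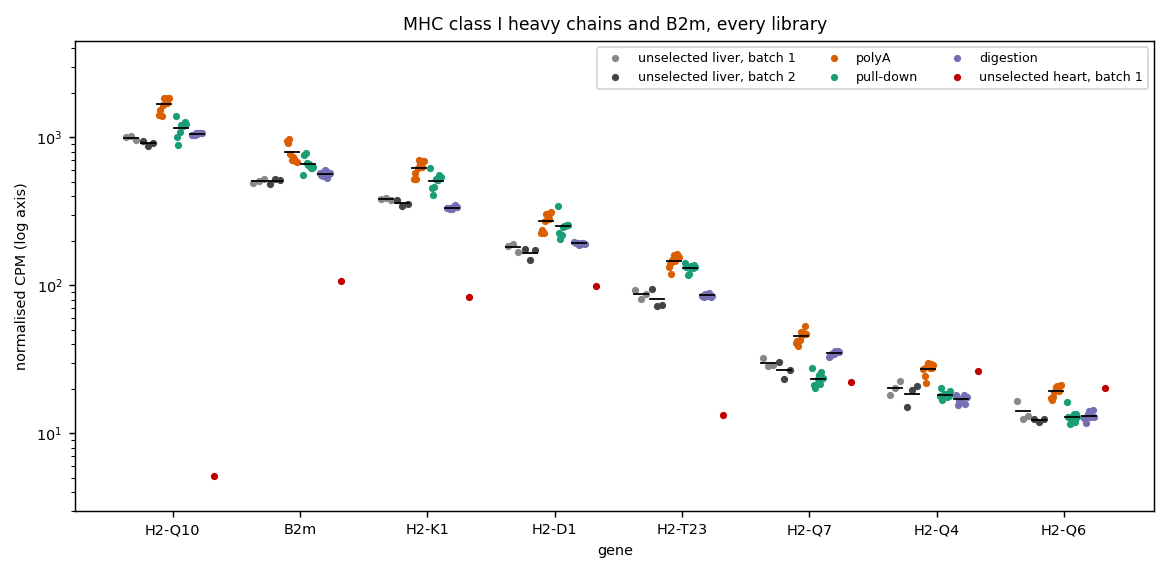
Normalised CPM (log axis) of the 8 genes in every library, with group means as black bars and groups by colour. H2-Q10 falls from 962.6 CPM or more in unselected liver of batch 1 to 5.12 CPM in heart, and the polyA means lie above the unselected means for all 8 genes.

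The first question of the study was what a selection method does to measured levels, relative to RNA with no selection. After polyA selection, all 8 members were higher than in the unselected libraries of batch 1, by edgeR's quasi-likelihood test with Benjamini-Hochberg adjustment over all 15422 genes tested (adjusted p under 0.05). Of all genes tested, 50.4% were called in this comparison, 25.6% higher and 24.8% lower. The median log2 fold change of the members was 0.59, and that of all genes 0.04. All 8 members passed the filter on low counts here and in every comparison below.

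H2-Q10 ranged over the 9 polyA libraries from 1393 through a median of 1715 to 1856 CPM, all above the 3 unselected values. Its log2 fold change was 0.78 ± 0.0921 (SE, edgeR adjusted p = 2.3e-08), which is 1.72-fold. H2-T23, the Qa-1 gene, ranged from 119.8 through 147.7 to 163.4 CPM against 93.55, 80.55 and 87.68 CPM unselected, a log2 fold change of 0.76 ± 0.0805 (edgeR adjusted p = 3.31e-09). H2-K1 ranged from 522.4 through 633.9 to 699.8 CPM against 385.1, 391.6 and 376.8 CPM, a log2 fold change of 0.71 ± 0.0902 (edgeR adjusted p = 9.31e-08). None of these 3 heavy chains overlapped its unselected values.

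The other classical gene, H2-D1, ranged from 225.0 through 279.0 to 310.7 CPM after polyA selection, against 183.8, 189.6 and 169.1 CPM, and its log2 fold change was 0.61 ± 0.114. The light chain gene B2m ranged from 686.2 through 737.2 to 975.0 CPM, with a log2 fold change of 0.58 ± 0.0879 (edgeR adjusted p = 1.69e-06). Neither overlapped its unselected values. The 3 least abundant heavy chains had log2 fold changes of 0.58 ± 0.0827 for H2-Q7, 0.48 ± 0.106 for H2-Q4 and 0.46 ± 0.0941 for H2-Q6 (edgeR adjusted p = 7.62e-07, 3.13e-04 and 1.26e-04). H2-Q4 was the only one of the 8 whose polyA range, 21.98 to 29.73 CPM, overlapped the unselected one, 18.13 to 22.55 CPM. All 8 calls held when any 1 of the 3 unselected libraries was left out.

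After rRNA pull-down, 5 members were higher than in the unselected libraries of batch 2, 1 was lower and 2 were not called (edgeR, adjusted p under 0.05), against 32.8% of all genes called, 17.5% higher and 15.3% lower. H2-T23 had the largest log2 fold change of the 8, at 0.71 ± 0.0819 (SE, edgeR adjusted p = 3.44e-08). Its pull-down values ran from 117.0 through a median of 133.4 to 140.6 CPM, above the unselected 94.80, 72.97 and 73.33 CPM. H2-D1 had 206.4 through 252.0 to 342.4 CPM against 176.6, 148.6 and 173.7 CPM, a log2 fold change of 0.59 ± 0.115 (edgeR adjusted p = 1.22e-04). H2-K1 followed with 0.51 ± 0.0901, H2-Q10 with 0.38 ± 0.0910 and B2m with 0.33 ± 0.0875 (edgeR adjusted p = 3.16e-05, 0.00138 and 0.00384).

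The 3 Q-region genes of lowest level per kb gave other values. H2-Q4 and H2-Q6 had log2 fold changes of 0.04 ± 0.111 and 0.03 ± 0.101 after pull-down (95% intervals -0.18 to 0.27 and -0.17 to 0.24). H2-Q7 was lower, with 20.16 through 23.42 to 27.79 CPM against 30.34, 23.14 and 26.82 CPM unselected. These ranges overlapped, and the log2 fold change of H2-Q7 was -0.26 ± 0.0867 (edgeR adjusted p = 0.0182). That call was lost without unselected batch 2 replicate 1 (-0.16, adjusted p = 0.254) or replicate 3 (-0.26, adjusted p = 0.0608), and when H2-Q6 and H2-Q7 were summed to 1 row (-0.16, adjusted p = 0.128).

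In the pull-down libraries, markers of other liver cells also stood at other levels. The 6 Kupffer cell markers summed to 156.4 to 222.0 CPM against 104.8 to 110.6 CPM in the unselected libraries of batch 2, with 5 of 6 called higher. The 6 endothelial markers summed to 237.8 to 298.7 CPM against 196.5 to 207.2 CPM, with 5 of 6 called higher, and the 7 hepatocyte markers to 55170 to 72810 CPM against 54220 to 54950 CPM, also with 5 called higher. No marker of these 3 lists was at 0 in every library of a liver group. Their part in the class I result was not tested. In polyA libraries, where all 8 members were higher, the same sums were 75.54 to 84.34 CPM (Kupffer), 90.37 to 96.45 CPM (endothelial) and 71720 to 79290 CPM (hepatocyte), against 105 to 111.7, 192.7 to 213.4 and 54860 to 55530 CPM in unselected batch 1, which was likewise not tested.

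After rRNA digestion, 1 member was called against the same unselected libraries of batch 2, which the pull-down comparison also used. It was H2-Q7, with 32.80 through 34.67 to 35.82 CPM, above all 3 unselected values, and a log2 fold change of 0.35 ± 0.0844 (SE, edgeR adjusted p = 0.00389). Of all genes, 14.7% were called, 7.06% higher and 7.66% lower. The call on H2-Q7 was lost without unselected batch 2 replicate 2 (0.26, edgeR adjusted p = 0.0777). The other 7 members had log2 fold changes from -0.08 ± 0.0886 in H2-K1 to 0.25 ± 0.0907 in H2-Q10 (edgeR adjusted p = 0.618 and 0.0612). H2-Q10 had 1033 through 1062 to 1076 CPM against 944.2, 876.1 and 920.4 CPM, without overlap. When only the 3 medium-length libraries of each method were used, 4 members were called, against 17.1% of all genes: H2-Q7 at 0.28, B2m at 0.16, H2-Q10 at 0.13 and H2-K1 at -0.21. Without the low-depth pull-down library, which shares the fit, H2-Q10 was called as well (0.23, edgeR adjusted p = 0.00828). Of the 6 Kupffer cell markers, 5 were called lower after digestion (sum 75.3 to 85.0 CPM against 104.8 to 110.6 CPM unselected), as were 3 of the 6 endothelial markers (164.9 to 176.6 against 196.5 to 207.2 CPM). Of the 7 hepatocyte markers, 2 were called lower and 1 higher (45040 to 48290 against 54220 to 54950 CPM). None of these sums overlapped, and their part in the class I values was not tested.

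**Figure D2:**
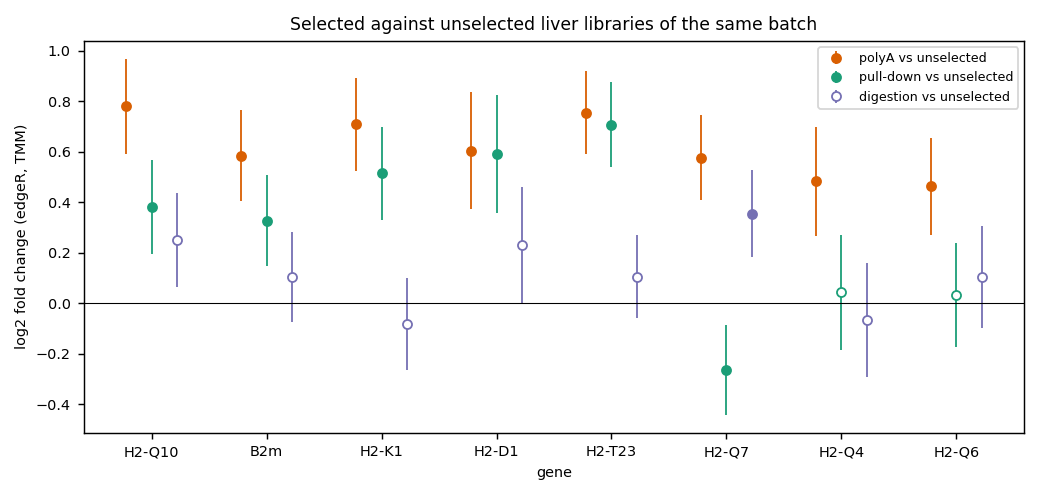
Log2 fold change of each gene in selected against unselected liver libraries of the same batch, with 95% intervals from the standard error and the t distribution at the test's degrees of freedom. Filled points passed an adjusted p of 0.05 in edgeR: all 8 for polyA, 6 for pull-down and 1 for digestion, with H2-Q7 below 0 for pull-down at -0.26 and above 0 for digestion at 0.35.

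In normalised CPM, H2-Q7 was at a separate level in each of the 3 methods. PolyA selection gave 38.80 through 45.81 to 53.02 CPM and pull-down 20.16 to 27.79 CPM, with digestion in between at 32.80 to 35.82 CPM and no overlap among the 3 on this scale. As a percentage of counts outside rRNA genes and Lars2, digestion (0.00546 to 0.00601) lay inside the polyA range (0.00523 to 0.00765). Pull-down was below both there, at 0.00209 to 0.00354. Its log2 difference between polyA and pull-down was 0.99 ± 0.0429 (SE, edgeR adjusted p = 4.9e-19), and between digestion and pull-down 0.62 ± 0.0431 (edgeR adjusted p = 6.73e-14). As 1 row with H2-Q6, these differences were 0.87 and 0.44 (edgeR adjusted p = 6.02e-18 and 6.39e-11). H2-Q7 held 70.2% ± 1.53 (SD, n = 9) of the H2-Q6 plus H2-Q7 counts in polyA, 72.6% ± 1.18 in digestion and 64.3% ± 1.07 in pull-down, against 68.1% ± 1.73 and 68.3% ± 2.34 (n = 3 each) in the unselected batches.

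Digestion against pull-down gave the opposite direction for 5 members. H2-T23 was lower in digestion by a log2 difference of -0.60 ± 0.0454, H2-K1 by -0.60 ± 0.0536, H2-D1 by -0.36 ± 0.0664 and B2m by -0.22 ± 0.0525 (edgeR adjusted p = 4.43e-13, 2.37e-11, 1.6e-05 and 3.74e-04). H2-K1 had 327.4 to 346.4 CPM in digestion and 410.8 to 616.2 CPM in pull-down, and H2-T23 had 83.51 to 88.96 against 117.0 to 140.6 CPM, both without overlap on the TMM scale. H2-Q10 was called lower at -0.13 ± 0.0548 (edgeR adjusted p = 0.0361), a call that was lost without the low-depth pull-down library (-0.07, adjusted p = 0.119). In all, 5 members were called lower in digestion and 1 higher, against 36% and 34.7% of all genes (70.7% in either direction). All 6 Kupffer, all 6 endothelial and all 7 hepatocyte markers were called lower in digestion as well (median log2 differences -1.08, -0.64 and -0.44), and their part in the members' values was not tested. None of the 5 lower calls held when counts were scaled by library totals. H2-K1 and H2-T23 were then at -0.04 each and not called (edgeR adjusted p = 0.555 and 0.42), and H2-D1, H2-Q10 and B2m turned sign, as given with the scaling below. As a percentage of counts outside rRNA genes and Lars2, H2-K1 had 0.0543 to 0.0579 in digestion, inside the pull-down range of 0.0426 to 0.0785. H2-T23 had 0.0140 to 0.0149, inside 0.0122 to 0.0179.

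PolyA against the other methods gave higher values for 7 members over pull-down and for all 8 over digestion, and none was called lower. Over pull-down, 72.6% of all genes were called, 36.4% higher and 36.2% lower, and over digestion 80.6%, with 38.4% higher and 42.2% lower. Against pull-down, H2-Q6 had a log2 difference of 0.62 ± 0.0433, H2-Q4 of 0.58 ± 0.0513 and H2-Q10 of 0.52 ± 0.0549 (SE, edgeR adjusted p = 8.31e-14, 2.19e-11 and 7.68e-10). H2-D1 was the member not called, at 0.13 ± 0.0662 (95% interval -0.002 to 0.27, edgeR adjusted p = 0.0706), and it was called without the low-depth pull-down library (0.20, adjusted p = 3.78e-04). Against digestion, H2-K1 had the largest log2 difference, 0.89 ± 0.0534, and H2-Q7 the smallest, 0.38 ± 0.0403 (edgeR adjusted p = 8.19e-16 and 7.45e-10). These values hold the batch as well as the method. As a percentage of counts outside rRNA genes and Lars2, polyA and digestion ranges overlapped in H2-D1, B2m, H2-Q4, H2-Q6 and H2-Q7. They did not overlap in H2-K1, H2-Q10 and H2-T23. In the unselected libraries, batch 2 against batch 1 moved the members by -0.19 to 0.01, and 0% of all genes were called.

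Markers of other cells moved with these differences too. Against pull-down, 6 of 6 Kupffer and 6 of 6 endothelial markers were lower in polyA libraries (median log2 difference -1.13 and -1.16), and of 7 hepatocyte markers 6 were higher and 1 lower (0.34). Against digestion, 2 of 6 Kupffer markers were higher and 3 lower (-0.14), 1 of 6 endothelial markers was higher and 5 lower (-0.55), and 6 of 7 hepatocyte markers were higher and 1 lower (0.69). Their part in the class I differences was not tested.

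Summed over the 8 genes, class I transcripts made 2217 CPM ± 32.6 (SD, n = 3) and 2084 CPM ± 58.5 in the unselected batches. The sum was 3598 CPM ± 201 (n = 9) in polyA, 2771 CPM ± 189 in pull-down and 2301 CPM ± 26.7 in digestion. The lowest polyA library, at 3316 CPM, lay above the highest of all other liver libraries, the low-depth pull-down library at 3111 CPM. Of the sum of the 7 heavy chains, without B2m, H2-Q10 held 59.5% ± 0.127 in polyA and 61.0% ± 0.301 in digestion, and 55.1% ± 1.08 in pull-down. H2-K1 held 24.2% ± 0.303 of the heavy chain sum in pull-down and 19.3% ± 0.174 in digestion. These are shares of CPM, not per length, and no test was made of the sum or the shares.

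Values on this scale depend on how libraries are brought to a common level, because rRNA genes took 70.0 to 73.5% of the counts in unselected liver libraries, at most 0.851% in polyA, digestion and 8 of the pull-down libraries, and 12.7% in the low-depth pull-down library. The trimmed-mean (TMM) scaling used here left the median log2 fold change of all genes at 0.04, 0.06 and 0.04 in the 3 comparisons with unselected RNA. With library totals in its place, those medians were 2.67, 2.31 and 2.85, and the log2 ratio of the class I sum became 3.34 for polyA, 2.66 for pull-down and 2.95 for digestion. On that scale H2-Q7 after pull-down (2.00) and H2-K1 and H2-Q4 after digestion (2.74 and 2.75) were above 0 but below the median of all genes. Digestion against pull-down had a median of 0.55 there, and H2-D1 (0.20), H2-Q4 (0.45), H2-Q10 (0.43) and B2m (0.33) turned positive and lay below it. A further scale was the percentage of all counts that remain when rRNA genes and the gene Lars2 are both left out of the total. On it, the class I sum was 0.261 ± 0.00552 and 0.240 ± 0.0106 in the unselected batches (SD, n = 3). It was 0.508 ± 0.0407 in polyA, 0.385 ± 0.00391 in digestion and 0.321 ± 0.0401 in pull-down libraries (n = 9 each), so that digestion stood above pull-down on this scale.

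Fragment length was the second factor. In polyA libraries, long against short fragments changed all 8 members, and B2m went the other way from the heavy chains: 1 member was called higher and 7 lower (edgeR on 9 libraries, adjusted p under 0.05), against 27.7% and 28.7% of the 14342 genes tested (56.3% in either direction). B2m, which has the shortest transcript of the 8 at 860 bases, had 686.2, 697.2 and 717.9 CPM with short fragments and 975.0, 911.7 and 950.1 CPM with long ones. Its log2 change was 0.41 ± 0.0281 (SE, edgeR adjusted p = 4.81e-07).

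H2-D1, whose transcript is the longest at 2102 bases, had 310.7, 308.3 and 279.0 CPM with short fragments and 225.2, 235.8 and 225.0 CPM with long ones. Its log2 change was -0.41 ± 0.0306 (edgeR adjusted p = 9.91e-07). H2-Q10 had 1856, 1853 and 1715 CPM against 1393, 1520 and 1409 CPM, a log2 change of -0.35 ± 0.0260 (edgeR adjusted p = 9.62e-07). The short and long libraries did not overlap in these genes. H2-K1 changed by -0.34 ± 0.0278, H2-Q7 by -0.30 ± 0.0409, H2-T23 by -0.28 ± 0.0376, and H2-Q4 and H2-Q6 by -0.25 ± 0.0553 and -0.25 ± 0.0483. Their transcripts have 1619, 1523, 1472, 1793 and 2085 bases in that order, and that of H2-Q10 has 1991. These are lengths of the longest annotated coding transcript, and their part in the changes was not tested. All 8 calls held when any 1 ramp rate was left out. The share of B2m in the 8-gene sum ran from 18.05% to 29.4% over the 9 polyA libraries.

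In pull-down libraries, no member was called for length (edgeR, 0 of 8, also 0 at an unadjusted p under 0.05 and 0 with DESeq2), against 6.23% of 14128 genes, 4.59% higher and 1.64% lower. The low-depth library stood apart here. With long fragments, H2-D1 had 206.4 and 224.4 CPM at the fast and medium ramp and 342.4 CPM in the low-depth library, where 419 counts stood behind the value. B2m had 786.7 and 755.7 CPM and 560.6 CPM in that library, and H2-Q10 had 883.1 and 1007 CPM and 1389 CPM. Without it, 5 members were called, against 37.4% of all genes: B2m at 0.32 and H2-Q10, H2-K1, H2-D1 and H2-Q7 at -0.41, -0.34, -0.27 and -0.24 on the log2 scale (edgeR adjusted p = 2.36e-04, 3.36e-04, 5.68e-04, 0.00363 and 0.0129).

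In digestion libraries, 2 members were called lower with long fragments, against 9.34% of 14897 genes, and none higher, against 8.97% (18.3% in either direction). H2-Q10 ran from 1070 to 1076 CPM with short and from 1033 to 1039 CPM with long fragments, and its log2 change was -0.05 ± 0.0145 (SE, edgeR adjusted p = 0.0161). H2-Q7 changed by -0.09 ± 0.0288 (edgeR adjusted p = 0.0349). Both calls were lost when any 1 ramp rate was left out, which leaves 2 libraries per length: H2-Q10 then had -0.06 to -0.05 (adjusted p from 0.0802 to 0.104) and H2-Q7 -0.12 to -0.08 (0.0636 to 0.219). B2m, at 531.1 to 571.1 CPM with short and 554.1 to 571.9 CPM with long fragments, had a log2 change of 0.03 ± 0.0255 (95% interval -0.03 to 0.08).

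**Figure D3:**
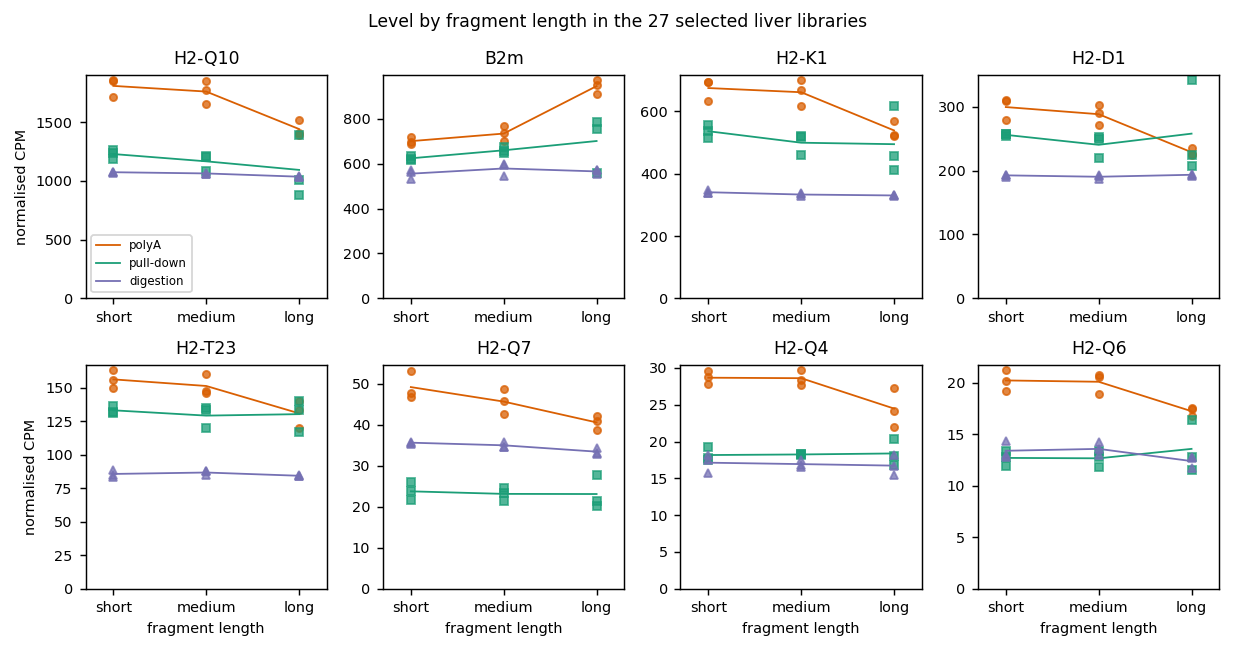
Normalised CPM of each gene by fragment length in the 27 selected libraries, with lines through the means of 3 libraries. In polyA libraries B2m climbs from a mean of 700.4 to 945.6 CPM while the 7 heavy chains fall, and the pull-down library with slow ramp and long fragments stands above its neighbours in H2-D1 at 342.4 CPM and below them in B2m at 560.6 CPM.

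A test of whether the length effect differed between methods (edgeR interaction on 27 libraries) called 4 members, against 34.1% of 14454 genes. They were H2-T23, H2-D1, B2m and H2-Q4 (adjusted p = 0.0151, 0.0287, 0.0323 and 0.033). Without the low-depth library, H2-K1, H2-Q10 and H2-Q7 were called as well (adjusted p = 2.82e-04, 6.37e-05 and 0.0377), and H2-Q6 was not (0.102). With relative log expression (RLE) size factors inside edgeR, B2m kept its call (adjusted p = 0.00872). H2-T23, H2-D1 and H2-Q4 lost theirs (edgeR adjusted p = 0.0544, 0.072 and 0.0838). With DESeq2, the adjusted p was 2.7e-04 for B2m, 0.0289 for H2-T23, 0.0499 for H2-D1 and 0.0909 for H2-Q4. Without the filter on low counts, B2m was not called (adjusted p = 0.0536). Pooled over the 3 methods, B2m was higher with long fragments by 0.22 ± 0.0558 and 5 heavy chains were lower, against 25.7% and 20.5% of genes (46.3% in either direction). Those 5 were H2-Q10, H2-Q7, H2-K1, H2-Q6 and H2-T23, with log2 changes from -0.17 to -0.10. The calls on H2-K1, H2-Q6 and H2-T23 were lost without the filter (edgeR adjusted p = 0.0756, 0.0626 and 0.138).

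Cell markers were called for length as well. Pooled over the methods, 6 of 6 Kupffer, 4 of 6 endothelial and 3 of 6 leukocyte markers were higher with long fragments and none lower (median log2 change 0.24, 0.15 and 0.21), and of 7 hepatocyte markers 1 was higher and 1 lower (-0.01). In polyA libraries, 2 of 6 Kupffer and 3 of 7 leukocyte markers were higher (0.05 and 0.43), 2 of 6 endothelial markers were higher and 1 lower (0.08), and of 7 hepatocyte markers 3 were higher and 1 lower (0.01). In pull-down libraries, 3 of 6 Kupffer, 1 of 6 endothelial and 1 of 7 leukocyte markers were higher (0.45, 0.23 and 0.80), with 1 hepatocyte marker higher and 1 lower (-0.14). In digestion libraries, 1 Kupffer and 2 endothelial markers were higher (0.11 and 0.12), no leukocyte marker was called (-0.01), and 2 hepatocyte markers were higher and 3 lower (0.01). Their part in the length results was not tested.

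Neither the ramp rate nor the batch of unselected libraries gave a called member. Fast against slow ramp had log2 changes from -0.05 in H2-Q4 to 0.06 in B2m, and 0.00692% of genes were called (edgeR and DESeq2, 0 of 8 members each, and 0 at an unadjusted p under 0.05). Batch 2 against batch 1 had log2 changes from -0.19 ± 0.122 in H2-Q6 to 0.01 ± 0.0930 in B2m, with 0% of 15422 genes called and 0 of 8 members called by edgeR and by DESeq2 or at an unadjusted p under 0.05. The log2 values of the 7 heavy chains lay between -0.19 and -0.10, and each 95% interval held 0. The interval for H2-Q10 ran from -0.32 to 0.07.

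In heart, the level of class I transcripts was lower and its make-up was another. The 8 genes summed to 375.4 CPM in the heart library and to 2224, 2245 and 2181 CPM in the unselected liver libraries of the same batch. With 1 heart library there is no test, and members are described by whether they differed by more than 2-fold. None was higher in heart past 2-fold (26.4% of 12828 genes were) and 4 were lower (23.3% of genes were, 49.7% in either direction). Heart and liver differ in their cells, and in whole tissue fewer cells of a type and less RNA per cell cannot be told apart. The 6 Kupffer markers summed to 10.52 CPM in heart against 105 to 111.7 CPM in liver, with Marco at 0 in heart. The 6 endothelial markers summed to 255.3 against 192.7 to 213.4 CPM, and the 9 class II genes to 189 against 143 to 146.3 CPM. Of the endothelial markers, 2 were higher in heart past 2-fold: Kdr (165.6 against a liver mean of 55.58 CPM) and Pecam1 (75.75 against 13.7). Another 3 were lower past 2-fold: Stab2 (0.139 against 78.59), Clec4g (0.139 against 19.68) and Fcgr2b (6.37 against 29.54). The part of these genes in the class I levels was not tested.

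H2-Q10 stood at 5.12 CPM in heart (37 counts, exact Poisson 95% interval 3.61 to 7.06 CPM, for counting error only) against 962.6 to 1019 CPM in liver, which was 194-fold higher (interval 140.6 to 275.5). The 7 hepatocyte markers in the heart library, at 192.5 CPM, were present against 54860 to 55530 CPM in liver, and their part in the H2-Q10 level of heart was not tested. H2-T23 was 6.56-fold higher in liver, at 13.3 CPM in heart against 80.55 to 93.55 CPM. B2m was 4.74-fold higher, at 106.8 against 494.6 to 520.0 CPM, and H2-K1 was 4.63-fold higher, at 83.1 against 376.8 to 391.6 CPM.

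The remaining heavy chains differed less. H2-D1 was 1.84-fold higher in liver (interval 1.69 to 2.00), with 98.5 CPM in heart, and H2-Q7 was 1.33-fold higher (1.11 to 1.61), with 22.3 CPM in heart. H2-Q4 and H2-Q6 were higher in heart, at 26.2 and 20.2 CPM against 18.13 to 22.55 and 12.46 to 16.49 CPM, which was 1.29-fold and 1.44-fold. Summed, H2-Q6 and H2-Q7 stood at 42.51 CPM in heart, inside the liver range of 40.72 to 48.63 CPM, and H2-Q7 held 52.4% of that sum in heart against 68.1% in liver, a split that is uncertain. With library totals as the scale, H2-Q7 was higher in heart as well, by 0.11 on the log2 scale, and H2-Q6 passed 2-fold at 1.05. Of the heavy chain sum, H2-D1 held 36.7% in heart and 10.6% in unselected liver of batch 1, H2-K1 30.9% against 22.5%, and H2-Q10 1.91% against 58.1%. Per kb, B2m in heart was at 124 CPM, H2-K1 at 51.3, H2-D1 at 46.8, H2-Q7 and H2-Q4 at 14.6 each, H2-Q6 at 9.70, H2-T23 at 9.03 and H2-Q10 at 2.57.

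**Figure D4:**
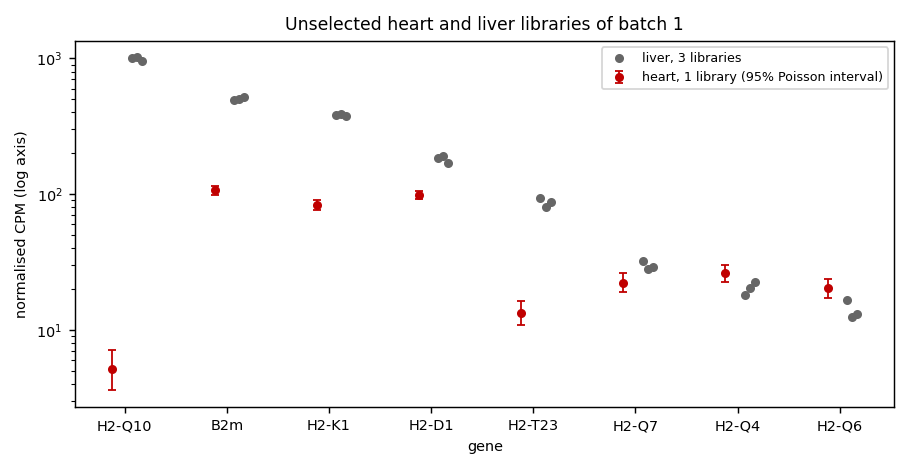
Normalised CPM (log axis) in the 1 unselected heart library, with 95% Poisson intervals that cover counting error only, and in the 3 unselected liver libraries of the same batch. H2-Q10 stands at 962.6 to 1019 CPM in liver and at 5.12 CPM in heart, whereas H2-Q4 and H2-Q6 lie slightly higher in heart, the latter with a split from H2-Q7 that is uncertain.

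Other genes of the class I family, 21 with a row in the table, were counted in the same way. Of the 13 that passed the filter, 7 were higher and 1 lower after polyA selection, 5 were higher after pull-down and 1 was lower after digestion (edgeR, adjusted p under 0.05). Over all genes, 25.6% were higher and 24.8% lower after polyA selection, 17.5% and 15.3% after pull-down, and 7.06% and 7.66% after digestion, so the digestion count is near that background. Among them are Azgp1, which encodes a secreted plasma protein, and Cd1d1, which presents lipids to natural killer T cells. Azgp1 had a log2 fold change of 0.80 with polyA selection, of 0.34 with pull-down and of -0.28 with digestion. Like H2-Q10, both stood far lower in heart: Azgp1 at 1.66 CPM against 551.6 to 583.3 CPM in liver, and Cd1d1 at 1.52 against 98.7 to 106.8 CPM. H2-T22, a ligand of gamma-delta T cells, had log2 fold changes of 0.59 after polyA selection and 0.47 after pull-down, and stood at 7.89 CPM in heart against 39.9 to 45.5 CPM in liver.

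The machinery that cuts peptides and loads them onto class I molecules had members in both directions. Of 15 loading and processing genes, 9 were higher and 1 lower after polyA selection, with a median log2 fold change of 0.30, against 25.6% and 24.8% of all genes. The largest changes were in the proteasome genes Psme2 (0.89), Psmb10 (0.86), Psmb9 (0.81) and Psme1 (0.74), and the chaperone gene Canx was the 1 that was lower (-0.60, named after its value was seen). After pull-down, 8 were higher and 1 lower (17.5% and 15.3% of all genes), with Psmb10 at 0.64, Psmb8 at 0.63 and Psme1 at 0.47, and Pdia3, which encodes a chaperone of the loading complex, at -0.51. After digestion, 5 were lower and 1 higher (7.66% and 7.06% of all genes), led by Psme2 at -0.84 and by Tapbp, the gene of the peptide-loading protein tapasin, at 0.38. In polyA libraries with long fragments, 10 of the 15 were lower and 5 higher (28.7% and 27.7% of all genes), with Canx at 0.47, Tap1 at -0.44, Erap1 at 0.43 and Tap2 at -0.33.

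Of 19 regulators and interferon response genes, 7 were higher and 5 lower after polyA selection (median log2 fold change 0.03), near the 25.6% and 24.8% of all genes. Isg15 was at 1.40 and Igtp at 0.56, both induced by interferon, and Nlrc5, which encodes the transactivator of class I genes, was at -0.51. Isg15 had only 27 counts over the 3 unselected liver libraries of batch 1. After pull-down, 6 were higher and 5 lower (17.5% and 15.3% of all genes), with Irf2 at -1.36 and Stat2 at -0.69. After digestion 1 was higher and 1 lower (7.06% and 7.66% of all genes). The 9 MHC class II genes, which present peptides from outside the cell, had 1 higher and 1 lower after polyA selection, against 25.6% and 24.8% of all genes. They were H2-Eb1 at 0.22 and Ciita at -1.46, the latter with 63 counts over the same 3 unselected libraries. After pull-down 4 were higher, against 17.5%: H2-Ab1 at 0.64, H2-Eb1 at 0.56, H2-Aa at 0.47 and Cd74 at 0.45. After digestion 1 was lower, H2-Aa at -0.41, against 7.66%.

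Across the 33 liver libraries, members varied together to different degrees. Pearson's r of log2 (CPM + 1) was 0.954 between H2-K1 and H2-T23, 0.920 between H2-K1 and H2-D1 and 0.885 between H2-K1 and H2-Q10, and 0.252 between H2-Q7 and H2-T23. These values describe differences between methods, batches and fragment lengths that the libraries share, and carry no test. Of 6589 genes with a mean of at least 10 CPM, those most like H2-Q10 were Pcyt2 (r = 0.990), Ldhd (0.986), Kyat1 (0.982) and Nucb1 (0.977). Those most like H2-K1 were Proc (0.984), Hagh (0.982), Lcat (0.980), Idh3b (0.980) and Ctsz (0.980). For B2m they were Mgst1 (0.969), Vps29 (0.957), C1d (0.956), Spcs1 (0.956) and Thoc7 (0.946).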

How the data were processed

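Expression was measured by RNA-seq in 33 libraries of liver and 1 of heart, all from 1 mouse. Per the submitters' processing notes, UMI-tools 1.1.1, Salmon 1.9.0, R 4.4.0 and GRCm38 were used by the authors, and their order and settings are not given in the sources used here. The deposited gene table holds expected counts (estimated by Salmon, per the file and those notes), which were rounded to whole numbers. Of the 51368 identifiers, 50896 were matched to a symbol in GENCODE M21 and 472 were not. Of the members' values, 86.8% were not whole (any decimal part, tolerance 0), against 10.5% over all genes.

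Tests used edgeR 4.0.16 in R 4.3.3 with limma 3.58.1: TMM scaling, the default filter on low counts, the quasi-likelihood F-test and Benjamini-Hochberg adjustment over all genes tested, called at an adjusted p under 0.05. Methods were compared in 1 fit of the 33 liver libraries, whose further terms were the ramp rate and the fragment length (slow ramp and medium fragments as reference), length and ramp in the 27 selected libraries, and length within each method in 9. A fold change is therefore adjusted for ramp and length, unlike the ranges beside it. Standard errors are the log2 fold change over the root of F, and 95% intervals use the t distribution at the test's degrees of freedom. Normalised CPM use the TMM-scaled totals of the liver libraries, with the heart library brought to that scale over the 4 unselected libraries of batch 1. CPM per kb divide by the longest coding transcript. Heart intervals are exact Poisson at 95% and cover counting error only.

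DESeq2 1.42.0, RLE size factors, library totals, no filter, single libraries left out and medium fragments only were alternatives. Other class I genes, loading genes, regulators, class II genes and cell markers were listed by name, and from each list of called genes the largest changes are named. Likeness was ranked by Pearson's r over genes with a mean of at least 10 CPM. The members and lists were chosen with earlier results of these data known. Code was tested on simulated data. H2-Q8 and H2-Q9 were not analysed here.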

Additional observations from a re-analysis of the deposited data

Results flagged for a closer look

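The pull-down library with slow ramp and long fragments, the one of 1.13 M counts, stood apart from the other 8 pull-down libraries in H2-D1, at 342.4 CPM against 206.4 to 257.1 CPM, and in H2-Q6, at 16.35 CPM against 11.53 to 13.38 CPM. Its gap to the nearest library, divided by the range, was 0.627 and 0.616, above Dixon's 95% critical value of 0.493. In all, 27 groups were tested this way and 2 passed, where chance gives about 1 in 20.

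The difference between long and short fragments was itself different between the 3 methods in 4 of 8 members (edgeR interaction, Benjamini-Hochberg adjusted p), where 34.1% of all 14454 genes were called. In polyA libraries B2m had a log2 change of 0.41, against 0.17 with pull-down and 0.03 with digestion (adjusted p = 0.0323). In the same order, H2-D1 had -0.41, -0.02 and 0.01 (0.0287), H2-T23 had -0.28, -0.04 and -0.02 (0.0151), and H2-Q4 had -0.25, 0.03 and -0.04 (0.033). With RLE size factors, B2m alone passed (adjusted p = 0.00872), with 0.072 for H2-D1, 0.0544 for H2-T23 and 0.0838 for H2-Q4. Without the low-depth library, the pull-down change was 0.32 for B2m, -0.27 for H2-D1, -0.11 for H2-T23 and 0.03 for H2-Q4, and the adjusted p of the difference between methods was 1.57e-05, 1.18e-05, 0.00711 and 0.0273.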

How the results depend on the processing

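Over 752 values of single genes under other settings, 678 stayed on their side of the threshold (values near 0, called in neither setting, could turn sign), 22 lost the call, 32 gained it, 7 called in at least 1 of the settings turned sign and 13 without a test moved. These 7 turns came with library totals as the scale: 2.00 for H2-Q7 in pull-down against unselected, 2.74 and 2.75 for H2-K1 and H2-Q4 in digestion against unselected, and 0.20, 0.45, 0.43 and 0.33 for H2-D1, H2-Q4, H2-Q10 and B2m in digestion against pull-down. The log2 ratios of the class I sum then were 3.34, 2.66 and 2.95 for polyA, pull-down and digestion against unselected, 0.29 for digestion against pull-down (-0.27 with TMM), 0.69 and 0.40 for polyA against pull-down and digestion, -0.01 between batches and -2.04 for heart. H2-Q7 in heart against liver, without a test, went from -0.42 to 0.11 on that scale.

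Of the counts of called members, digestion against unselected (1) was 8 with library totals (15143 of 15422 genes called), 2 without a filter, 2 without the low-depth library, 4 with medium fragments only and 0 to 1 with a library left out. Pooled length (6, with 46.3% of all genes) was 3 without a filter, where H2-K1, H2-Q6 and H2-T23 lost their calls. The share of all genes without the filter is not given here. Length in digestion (2) was 1 with DESeq2 (1060 genes against 2727), 1 without a filter and 0 with any ramp rate left out. Length in pull-down (0 members, 880 genes) was 5 without the low-depth library (5398 genes), and 0 to 5 with a ramp rate left out (26 to 4597 genes). Length by method (4, with 4935 genes) was 1 with RLE size factors (4951 genes) and 7 without the low-depth library (6145 genes). With library totals it was 4 (6912 genes), with H2-Q4 lost (adjusted p = 0.0906) and H2-Q7 gained (0.0202). The cause of these changes was not tested.

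With the replicate number as a block, the batch comparison of the 6 unselected libraries called 0 members and 91 genes, against 39 genes in the same libraries without the block and 0 in the fit of all libraries. Same-numbered libraries had correlations of 0.0197, -0.112 and -0.19, so the numbers do not pair the samples. In the low-depth library, 20 counts stood behind H2-Q6 and 22 behind H2-Q4, which limits both there. A sum over H2-Q6 to H2-Q9 was planned, and only H2-Q6 and H2-Q7 were summed.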
